A study of Mus musculus with 30 samples.

Results

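The genes described here are 10 components of the MHC class I antigen presentation pathway: H2-K1, H2-D1, B2m, Tap1, Tap2, Tapbp, Psmb8, Psmb9, Psmb10 and Nlrc5. They were chosen by symbol and are 10 of the 20093 genes listed in any of the 14 deposited comparison tables; all 10 are in all 14 tables. The tables hold 3' QuantSeq profiles, in which reads come from the 3' end of each mRNA, of freshly isolated intestinal mesenchymal cells of C57BL/6 mice. Every mouse carried the genotype that the labels write as ColVI-cre, Rosa mTmG. This is a reporter in which cells carry membrane Tomato until Cre, here driven by collagen VI regulatory sequence, recombines it to membrane GFP, so that the GFP signal marks cells in which that promoter was active at some time. No group lacked the Cre driver or the reporter. From the normal colon there were GFP-positive, GFP-negative (Tomato) and unsorted cells, and the same 3 preparations came from the colon after DSS-induced colitis; DSS, dextran sulphate sodium, is a polymer that injures the colonic epithelium when given to mice. From the normal small intestine there were high GFP, low GFP, GFP-negative and unsorted cells. Each of the 10 groups has 3 labelled replicates, and replicate 1 of the unsorted small intestine is not analysed here, which leaves 29 libraries. The sources used here give no ages, DSS dose or duration, and nothing in the labels says whether replicates came from separate or pooled animals, so p-values measure the spread between these samples, which may be technical.

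MHC class I molecules display peptides from a cell's own proteins to CD8+ T cells and are read by natural killer cells. Proteins are cut by the proteasome, the peptides are carried into the endoplasmic reticulum by the TAP transporter, and they are loaded onto a heavy chain paired with beta-2-microglobulin. Nearly all nucleated cells do this at a basal level, and interferons, interferon gamma above all, raise the pathway as a block. In the mouse the heavy chains H2-K1 and H2-D1 are the classical class I molecules of the C57BL/6 haplotype, and many of the genes lie together in the MHC. In the files' mm10 coordinates 7 of the 10 members are on chromosome 17, among them H2-K1 at chr17:33996017-34000333, Tap1 at chr17:34187553-34197225, Psmb8 at chr17:34197721-34201454 and H2-D1 at chr17:35262730-35267499. B2m is on chromosome 2 at chr2:122147686-122153083, and Psmb10 and Nlrc5 are on chromosome 8.

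Class I promoters are known for an interferon response element, an NF-kB site and a compound element, the SXY module, through which the class I transactivator Nlrc5 acts; this module ends in a CREB-like TGACG sequence followed by a CCAAT box, written ATTGG on the other strand. The stretches upstream of H2-K1 and B2m are shown because they lie outside every annotated exon and hold the TGACG and ATTGG pair. That of H2-K1 also matches the NF-kB and interferon response patterns given below, and that of B2m does not match those exact patterns. The B2m stretch does hold gaaactgaaa, which is GAAA, 2 bases and GAAA again. The pattern used here misses that form, so the counts of its matches leave B2m out. Other forms of these elements were not searched for, so their absence before B2m is not shown. They are RefSeq promoter sequences of GRCm38.p6, the patch release of the mm10 build, and a window was matched for 8 of the 10 members, all but Tap2 and Nlrc5. The H2-K1 stretch is chr17:34000348-34000583 on the minus strand and the B2m stretch chr2:122147437-122147685 on the plus strand. Capitals mark matches, on either strand, to the NF-kB motif (GGG and TTCCC with 2 bases between them), GAANNGAAA (taken here as the core of the interferon-stimulated response element), TGACG and CCAAT. These motifs were chosen after the sequences had been seen.
H2-K1: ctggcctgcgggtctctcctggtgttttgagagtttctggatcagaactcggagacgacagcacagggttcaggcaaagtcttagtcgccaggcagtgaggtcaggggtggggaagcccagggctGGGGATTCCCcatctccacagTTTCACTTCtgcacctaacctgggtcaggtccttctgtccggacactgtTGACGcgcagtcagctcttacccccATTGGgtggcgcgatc
B2m: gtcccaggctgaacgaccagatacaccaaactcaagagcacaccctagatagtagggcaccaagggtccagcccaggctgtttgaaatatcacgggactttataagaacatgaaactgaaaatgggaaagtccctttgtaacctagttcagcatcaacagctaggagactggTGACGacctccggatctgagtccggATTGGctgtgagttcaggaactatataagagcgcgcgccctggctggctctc

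The 30 bases from the NF-kB site to the interferon response element of both heavy chain genes are set beside each other to show how alike they are; they lie at chr17:34000429-34000458 (minus strand) and chr17:35262923-35262952 (plus strand).
H2-K1: GGGGATTCCCcatctccacagTTTCACTTC
H2-D1: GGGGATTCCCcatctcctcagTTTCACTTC
They differ by 1 substitution, A18T, counted from the first base with H2-K1 first. The H2-D1 stretches shown here lie within annotated H2-D1 exons, as do all 250 bases before its RefSeq start. This arrangement, with 11 bases between the motifs, was found in the 250 bases before the RefSeq start of 3 of 27025 genes (0.0111%), namely H2-D1, H2-K1 and H2-Q6. The TGACG and ATTGG elements of 3 members are shown next because their spacing is the same while most of the bases between them are not (chr17:34000359-34000388, minus strand; chr17:35262993-35263022, plus strand; chr2:122147609-122147638, plus strand).
H2-K1: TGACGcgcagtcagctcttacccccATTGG
H2-D1: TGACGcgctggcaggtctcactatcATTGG
B2m: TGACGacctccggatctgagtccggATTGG
H2-K1 and H2-D1 differed at 7 of these 30 positions and H2-K1 and B2m at 17. TGACG and ATTGG at 20 bases' distance were found before 25 of the 27025 genes (0.0925%). The order and spacing in both searches were taken from the members' own sequences. These members therefore had to match, and both shares are descriptions and no test. Singly the motifs were common: CCAAT stood before 34.5% of all genes and 6 of the 8 members with a window, TGACG before 17.9% and 5 members (H2-K1, H2-D1, B2m, Tap1 and Psmb9), GAANNGAAA before 6.34% and 2 members, and the NF-kB motif before 1.44% and 2 members. The interferon gamma activated site TTCNNNGAA stood before 7.18% of genes and, of the members, before Psmb8. The RefSeq starts of Tap1 and Psmb9 lie 226 bases apart on opposite strands, so their windows shared 225 bases. A match is a description of the sequence and not a measured site.

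Values are the authors' normalised counts, which are whole numbers. The tables carry 3 separate scales, for normal colon, DSS colon and small intestine, and a common scale on which the authors put the 12 sorted colon libraries for the comparison of DSS with normal; levels are compared only within a scale. Library sums ranged from 2136620 to 4435964 normalised counts, and the spacing of low values gave an estimated 1228000 to 4411000 reads per library. On 8 simulated libraries this estimate was off by at most 7.91%. The mesenchymal label was looked at through 9 markers (collagen I and III chains, Dcn, Lum, Pdgfra, Pdgfrb, Vim and Thy1). In sorted cells they summed to 75323 to 112733 in the normal and 27583 to 81847 in the DSS colon. The 9 epithelial markers summed to 49 to 522 and 91 to 599 there. B and plasma cell markers summed to as much as 4338 in normal GFP-negative libraries. Unsorted normal colon libraries summed to 31690 to 69600 on the mesenchymal and 2326 to 20419 on the epithelial markers. In unsorted DSS colon libraries these were 15386 to 27794 and 3008 to 7545. Leukocyte markers were high in unsorted libraries as well, so these are mixed preparations. In all bulk samples, fewer cells of a type and less RNA per cell cannot be told apart.

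After DSS 6 of the 10 class I genes were higher in each sorted colon population. The labels number the normal and the DSS colon libraries in separate runs. Treatment and library series therefore cannot be told apart in any comparison of DSS with normal cells. In GFP-positive cells 6 of the 10 members rose, H2-K1, H2-D1, B2m, Tap1, Tap2 and Psmb9, and none fell (adjusted p under 0.05, limma on log2 of the value plus 1, Benjamini-Hochberg over all genes tested). Of the 12976 genes tested, 19.7% were called, 10.2% higher and 9.46% lower. In GFP-negative cells 6 of the 10 rose as well, H2-K1, H2-D1, Tap1, Tap2, Psmb8 and Psmb9, where 10.3% of 13025 genes were called, 6.03% higher and 4.27% lower. The median log2 fold change of the members was 1.33 in GFP-positive and 1.16 in GFP-negative cells, against -0.0085 and -0.016 over all genes tested. Leaving out each library in turn gave 4 to 7 members in GFP-positive and 3 to 7 in GFP-negative cells; the latter count was 3 without replicate 2 of the normal or of the DSS GFP-negative cells, and 3 without replicate 3 of the DSS GFP-negative cells. By the DESeq FDR in the authors' deposited table, 0 of the 10 members passed 0.05 in either population, where 45 and 76 of all genes did. The authors' deposited table gave Tap1 unadjusted p-values of 0.0072 and 0.00053, and an FDR of 1 for every member except Tap1 in GFP-negative cells, at 0.13. Unadjusted limma p-values were under 0.05 for 8 and 9 members, and for 34.5% and 27.2% of all genes.

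**Figure D1:**
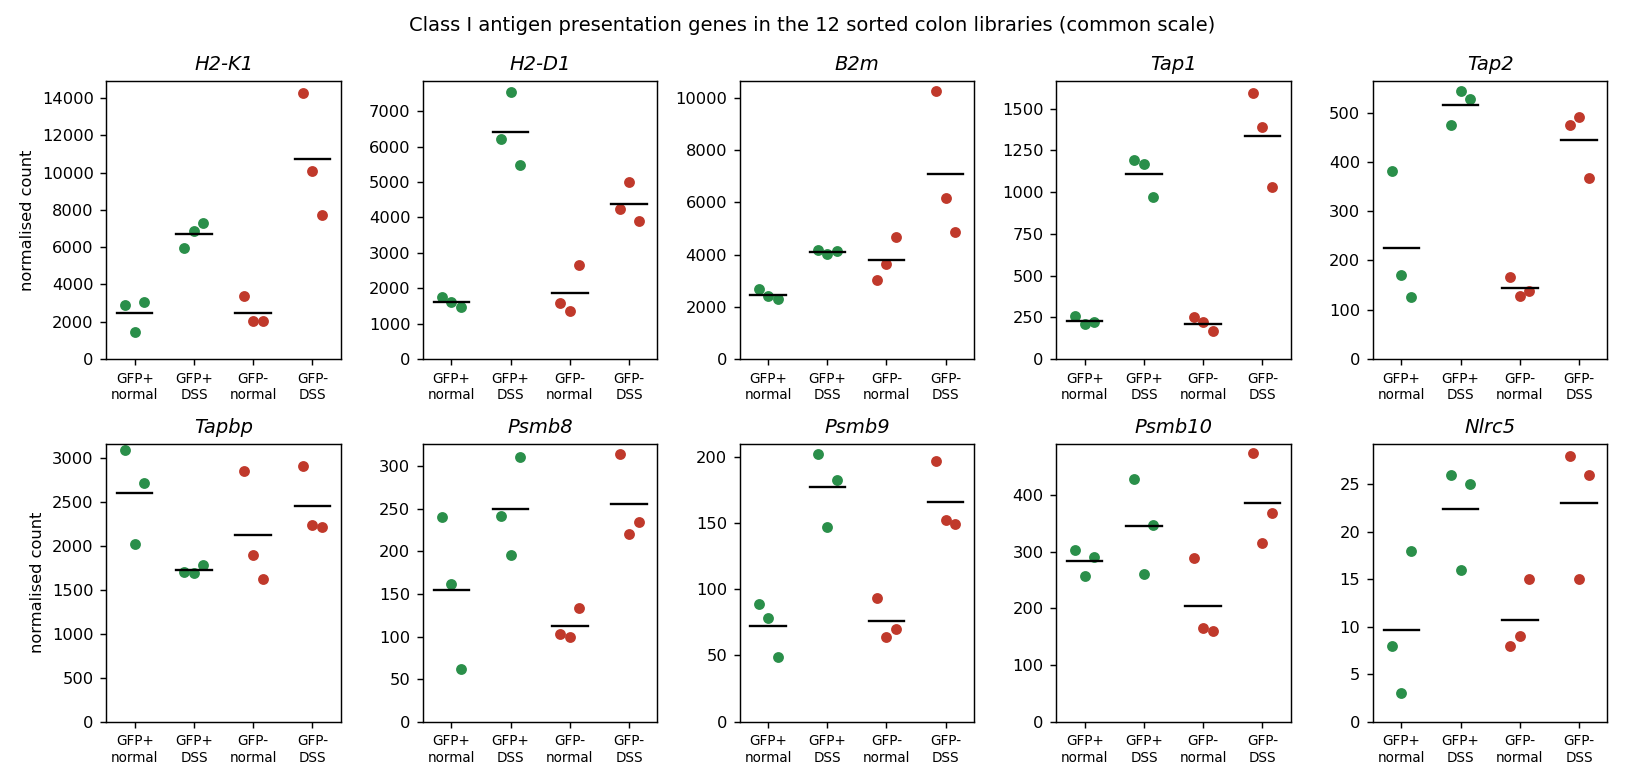
Normalised counts (vertical axis, from 0) of the 10 genes in the 12 sorted colon libraries on the authors' common scale; each point is a library and each bar the mean of 3. The DSS libraries of H2-K1, H2-D1, Tap1, Tap2 and Psmb9 all lie above the normal libraries of the same population, and Tapbp in GFP-positive cells lies below.

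Of the 10 members Tap1 had the largest log2 fold change in both populations. Tap1, one chain of the peptide transporter, stood at 259, 207 and 223 normalised counts in the normal GFP-positive libraries and at 1193, 1169 and 971 after DSS. The GFP-negative libraries went from 252, 219 and 167 to 1595, 1388 and 1029. Normal and DSS libraries did not overlap in either population. The log2 fold changes were 2.27 ± 0.19 (SE, n = 3 against 3; adjusted p = 8.9e-06, limma) and 2.64 ± 0.27 (adjusted p = 0.00013), and Tap1 stayed past the threshold when any single library was left out.

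Tap2, the partner chain of Tap1, was 382, 171 and 125 in normal GFP-positive libraries and 474, 543 and 528 after DSS. The GFP-negative libraries had 167, 127 and 138 normal and, after DSS, 475, 490 and 368. Normal and DSS values did not overlap, but replicate 1 of the normal GFP-positive cells, at 382, lay far above its 2 companions. Tap2 thus differed on the log2 scale by 1.35 ± 0.35 (adjusted p = 0.024, limma) and 1.62 ± 0.24 (adjusted p = 0.0016). In GFP-positive cells Tap2 passed the threshold in 2 of the 6 fits that left out a library, with adjusted p between 0.00043 and 0.083.

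H2-K1, a classical heavy chain, was 2909, 1472 and 3063 in normal and 5962, 6869 and 7298 in DSS GFP-positive libraries. In GFP-negative cells it was 3397, 2015 and 2061, then 14272, 10097 and 7740. No normal library reached a DSS library of its population. The fold changes on the log2 scale were 1.5 ± 0.27 (adjusted p = 0.0027, limma) and 2.10 ± 0.33 (adjusted p = 0.0022).

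H2-D1, the other classical heavy chain, was 1760, 1611 and 1464 in normal and 6219, 7544 and 5468 in DSS GFP-positive libraries. Normal GFP-negative libraries held 1595, 1356 and 2662, and DSS ones 4251, 4996 and 3913. Again the groups did not overlap, and the normal GFP-positive libraries lay close together. H2-D1 rose by a log2 fold change of 1.98 ± 0.21 (adjusted p = 5.3e-05, limma) in GFP-positive and of 1.28 ± 0.30 (adjusted p = 0.021) in GFP-negative cells. In the latter H2-D1 passed in 2 of the 6 fits without a library, with adjusted p from 0.0068 to 0.12.

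B2m, the light chain shared by all class I molecules, was 2680, 2413 and 2298 in normal and 4192, 4011 and 4151 in DSS GFP-positive libraries. In GFP-negative libraries the values were 3037, 3646 and 4692, and then 10253, 6181 and 4851. The GFP-positive DSS libraries were tightly grouped, whereas replicate 3 of the GFP-negative DSS cells lay just above the highest normal library. The log2 fold changes were 0.74 ± 0.19 (adjusted p = 0.017, limma) and 0.85 ± 0.33 (adjusted p = 0.12). The first passed in 3 of the 6 fits without a library, the second in none.

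The 3 immunoproteasome subunits replace constitutive catalytic subunits of the proteasome and change which peptides it makes. Psmb9, which takes the place of Psmb6, was 89, 78 and 49 in normal and 202, 147 and 182 in DSS GFP-positive libraries. In GFP-negative cells it was 93, 64 and 70, then 197, 152 and 149. The log2 fold changes were 1.32 ± 0.25 (adjusted p = 0.0038, limma) and 1.13 ± 0.26 (adjusted p = 0.018), with no overlap between normal and DSS libraries. In GFP-negative cells Psmb9 passed in 2 of the 6 fits without a library.

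Psmb8, which takes the place of Psmb5, was 240, 162 and 62 in normal and 242, 196 and 311 in DSS GFP-positive libraries, and these overlapped (log2 fold change 0.86 ± 0.46, adjusted p = 0.22, limma). In GFP-negative cells it was 103, 99 and 134, then 314, 220 and 235, with no overlap (1.18 ± 0.25, adjusted p = 0.012). The normal GFP-positive libraries spread widely: without replicate 1 of them the log2 fold change was 1.28 (adjusted p = 0.048), and without replicate 3 it was 0.31 (adjusted p = 0.42). In GFP-negative cells Psmb8 passed in 3 of the 6 fits without a library.

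Psmb10, which takes the place of Psmb7, was 304, 258 and 291 in normal and 429, 260 and 348 in DSS GFP-positive libraries (0.25 ± 0.22, adjusted p = 0.43, limma). In GFP-negative cells it was 289, 166 and 160, then 475, 315 and 369, without overlap (0.95 ± 0.29, adjusted p = 0.056). Without normal GFP-negative replicate 1 the latter was 1.22 (adjusted p = 0.0051). Its values need care: in the normal libraries Psmb10 departed from its library's ratio between the common and the normal colon scale by up to 12.7%, as did 0.66% to 1.06% of genes at 200 or more by over 3%, while 0% did in the DSS libraries. The reason for the departure was not found in the labels or file headers.

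Tapbp, tapasin, which holds empty heavy chains next to the transporter, did not share the rise. In GFP-positive cells it was 3092, 2022 and 2713 in normal and 1709, 1698 and 1790 in DSS libraries, so that every DSS library lay below every normal one (log2 fold change -0.57 ± 0.21, adjusted p = 0.074, limma). In GFP-negative cells it was 2859, 1903 and 1625, then 2909, 2235 and 2220, with overlap (0.24 ± 0.29, adjusted p = 0.64). When all libraries were rescaled to equal totals, which moved the median of all genes by about 0.1 downwards (to -0.133), the GFP-positive value was -0.69 with adjusted p = 0.028. Without normal GFP-positive replicate 2 it was -0.74 (adjusted p = 0.018). Across the 12 sorted colon libraries the log2 value of Tapbp had Pearson r = -0.078 with the mean of the other members, against 0.66 to 0.95 for the other 9; this is a description over libraries that share depth, sort and treatment.

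Nlrc5, the class I transactivator, was close to the lower limit of these libraries. It was 8, 3 and 18 in normal and 26, 16 and 25 in DSS GFP-positive libraries, and 8, 9 and 15 and then 28, 15 and 26 in GFP-negative ones. The libraries overlapped or touched in both populations. Its log2 fold changes were 1.38 ± 0.53 (adjusted p = 0.085, limma) and 1.04 ± 0.44 (adjusted p = 0.15). Without replicate 3 of the normal GFP-positive cells the first was 1.93 (adjusted p = 0.022).

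**Figure D2:**
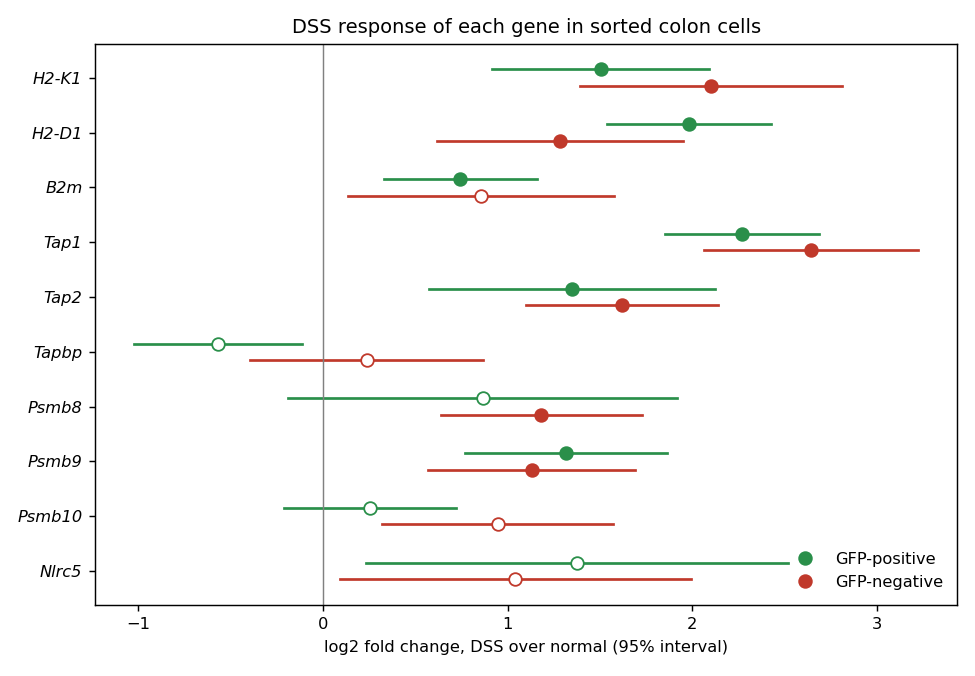
Log2 fold change of DSS over normal (horizontal axis) of each gene in GFP-positive and GFP-negative colon cells; lines are 95% intervals of the limma fit, filled points passed an adjusted p of 0.05 and open points did not. Tap1 lies farthest to the right in both populations, at 2.27 and 2.64, and Tapbp lies on either side of 0.

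Counted by overlap alone, 6 members were higher in all 3 DSS GFP-positive libraries than in all 3 normal ones and 1, Tapbp, was lower, where 19.2% and 18.8% of all genes did so. In GFP-negative cells 8 were higher and 0 lower, where 16.3% and 15.1% of genes did so. The 2 responses were then compared by the interaction over the 12 libraries. None of the 10 members passed (limma), where 7 of 13488 genes did (0.0519%), and 1 member, Tapbp, had an unadjusted p under 0.05, as had 8.01% of all genes. The Tapbp response was lower in GFP-positive cells by a log2 difference of -0.80 (95% interval -1.56 to -0.051; adjusted p = 0.58). For H2-D1 the difference was 0.70 (-0.080 to 1.48; adjusted p = 0.68) and for H2-K1 -0.60 (-1.55 to 0.35; adjusted p = 0.77). These intervals reach beyond a log2 difference of 1 in at least 1 direction, so the data do not show that the responses were alike.

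Markers of other cell types were summed in the same 12 libraries. The 10 myeloid markers in the tables summed to 105 to 208 in normal and 256 to 545 in DSS GFP-positive libraries, and to 119 to 191 and 439 to 567 in GFP-negative ones. S100a9 was at 0 in all 3 normal GFP-positive libraries. The 5 pan-leukocyte markers summed to 24 to 33 and then 46 to 224 in GFP-positive cells, and to 88 to 281 and then 82 to 188 in GFP-negative cells. The 3 T and NK cell markers listed summed to at most 20 in any of these libraries. The 4 B and plasma cell markers listed went from 755 to 3652 down to 233 to 666 in GFP-negative cells. In GFP-positive cells they summed to 55 to 350 and then 26 to 142. The 3 markers of interstitial cells of Cajal went from 363 to 499 down to 151 to 182 in GFP-positive cells. In GFP-negative cells these were 103 to 130 and then 72 to 155. The 5 pericyte markers went from 816 to 909 up to 2311 to 2708 in GFP-positive cells, while the 9 mesenchymal markers went from 62990 to 70605 down to 32408 to 36271 there. In GFP-negative cells the pericyte markers also rose, from 881 to 1043 up to 1212 to 1830. The mesenchymal markers there summed to 68294 to 95141 and then 72270 to 96084, which overlapped. The part of these changes in the members' values was not tested.

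The GFP-positive and GFP-negative populations were also compared with each other, each within its own scale. In the normal colon none of the 10 members passed (limma; 0 with unadjusted p under 0.05, against 17.3% of all genes), where 5.98% of 13346 genes did. B2m was 3205, 2877 and 2730 normalised counts in GFP-positive and 3609, 4320 and 5572 in GFP-negative libraries, the one member without overlap (log2 difference -0.60, 95% interval -1.21 to 0.023, adjusted p = 0.31). Over all genes 11.2% were higher and 10.8% lower without overlap. In the DSS colon none of the 10 passed either, where 17.1% of 12570 genes did, and 4 had an unadjusted p under 0.05, as had 29.4% of all genes. H2-K1 was 5098, 5847 and 6232 in GFP-positive and 12158, 8567 and 6587 in GFP-negative libraries (-0.63 ± 0.23, adjusted p = 0.073, limma). B2m was 3584, 3414 and 3545 against 8734, 5245 and 4128 (-0.71 ± 0.24, adjusted p = 0.057). Tapbp was 1461, 1445 and 1528 against 2478, 1897 and 1889 (-0.49 ± 0.18, adjusted p = 0.078). H2-D1 went the other way, at 5318, 6421 and 4670 against 3621, 4239 and 3330 (0.55 ± 0.19, adjusted p = 0.068). All 4 were without overlap between the populations, 1 higher and 3 lower, as were 17.1% and 16.5% of all genes. Without replicate 3 of the DSS GFP-negative cells 2 members were called. With the replicate number as a block 3 were called, 1 higher and 2 lower, and with libraries rescaled to equal totals 1 was called higher.

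The opposite signs of the heavy chains can be read within a library, where scaling cancels. The ratio of H2-D1 to H2-K1 in the DSS colon was 1.04, 1.1 and 0.749 in GFP-positive libraries and 0.298, 0.495 and 0.506 in GFP-negative ones. All 3 GFP-positive ratios lay above all 3 GFP-negative ratios, with geometric means of 0.950 and 0.421. An exact two-sided permutation test gave p = 0.10, the smallest that 3 against 3 allows (0.40 after Benjamini-Hochberg adjustment over 4 such tests). In the normal colon the ratios were 0.606, 1.1 and 0.478 in GFP-positive and 0.469, 0.674 and 1.3 in GFP-negative libraries, which overlapped (exact permutation p = 0.80). This ratio was chosen after its values were seen. Of the distinct 50-base words in the last 300 bases of the GENCODE transcripts, 9.54% for H2-K1 and 13.5% for H2-D1 also occur in other genes, each other among them. The split of reads between H2-K1 and H2-D1 is therefore uncertain. These shares count words and not reads, so they do not measure how uncertain the split is. For the other members the share was 0% to 5.07%.

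**Figure D3:**
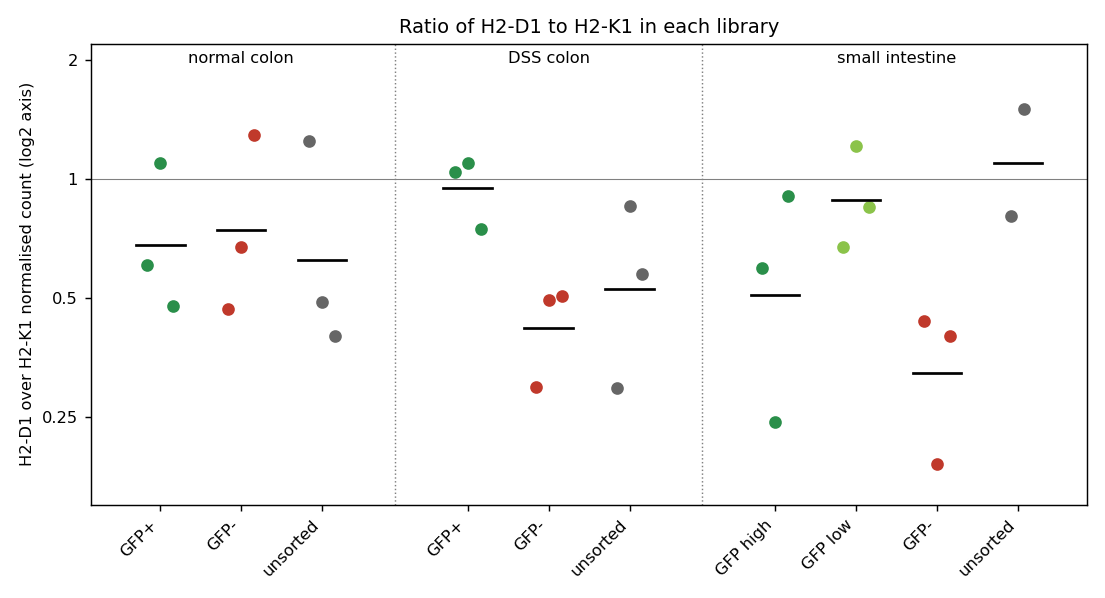
Ratio of the H2-D1 to the H2-K1 normalised count (vertical axis, log2 scale) in each of the 29 libraries by group; points are libraries and bars geometric means. In the DSS colon the GFP-positive ratios, 0.749 to 1.1, lie above the GFP-negative ones, 0.298 to 0.506.

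Between sorted cells of the small intestine few genes of any kind passed the test. Of high GFP against GFP-negative cells, none of the 10 members passed, where 0.894% of 12412 genes did (limma; 2 members and 10.6% of all genes with unadjusted p under 0.05). Of high against low GFP cells, none passed, where 0.384% of 12226 genes did (1 member and 7.7% of all genes with unadjusted p under 0.05). Of low GFP against GFP-negative cells, Tapbp was lower and no member was higher, where 0.675% of 12445 genes were called, 0.562% lower and 0.112% higher. Unadjusted limma p-values were under 0.05 for 4 members and 16.9% of all genes there. Tapbp was 1641, 1684 and 1414 in low GFP and 3308, 4565 and 3602 in GFP-negative libraries (-1.27 ± 0.25, adjusted p = 0.048, limma), with no overlap. That call was lost, with the direction kept, in all 6 fits that left out a library (adjusted p 0.066 to 0.23). The pericyte markers differed between the same groups, at 5573 to 8272 in low GFP and 1835 to 2587 in GFP-negative libraries, and their part in the result was not tested. Tap1 was 223, 303 and 168 in low GFP against 530, 835 and 601 in GFP-negative libraries (-1.51 ± 0.32, adjusted p = 0.055), and the high GFP libraries, at 262, 416 and 275, also lay below the latter (-1.05, adjusted p = 0.23). The GFP-negative Tap1 libraries thus lay above those of high and low GFP cells, which overlapped each other. Neither Tap1 difference passed the threshold, and the share of all genes without overlap is not given for these contrasts.

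A pair of small-intestinal libraries stood apart from their companions in H2-K1 and Tapbp together. High GFP replicate 2 had 13977 H2-K1 counts against 5883 and 5122 in its companions, and 5526 Tapbp counts against 2289 and 2351. GFP-negative replicate 2 had 15497 H2-K1 counts against 8392 and 7738, and 4565 Tapbp counts against 3308 and 3602. In neither library was H2-D1 raised: it was 3401 against 3509 and 4654, and 2954 against 3679 and 3109. Leaving out high GFP replicate 2 changed none of the calls between sorted small-intestinal cells. Without GFP-negative replicate 2 the Tapbp call of low GFP against GFP-negative cells was lost, as it was without any other library of that contrast. Estimated reads were 1376000 in high GFP replicate 2, against 2580000 and 2786000 in its companions. GFP-negative replicate 2 had 1544000, against 1228000 and 3196000. In the unsorted colon H2-K1 and Psmb10 also varied between replicates while H2-D1 did not follow, at 3797, 7889 and 10702 H2-K1 counts and 324, 663 and 944 Psmb10 counts in the normal libraries, where H2-D1 was 4744, 3847 and 4286. Unsorted DSS replicate 1 had 14696 H2-K1, 14383 B2m and 800 Psmb10 counts, against at most 5508, 5935 and 363 in its companions.

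**Figure D4:**
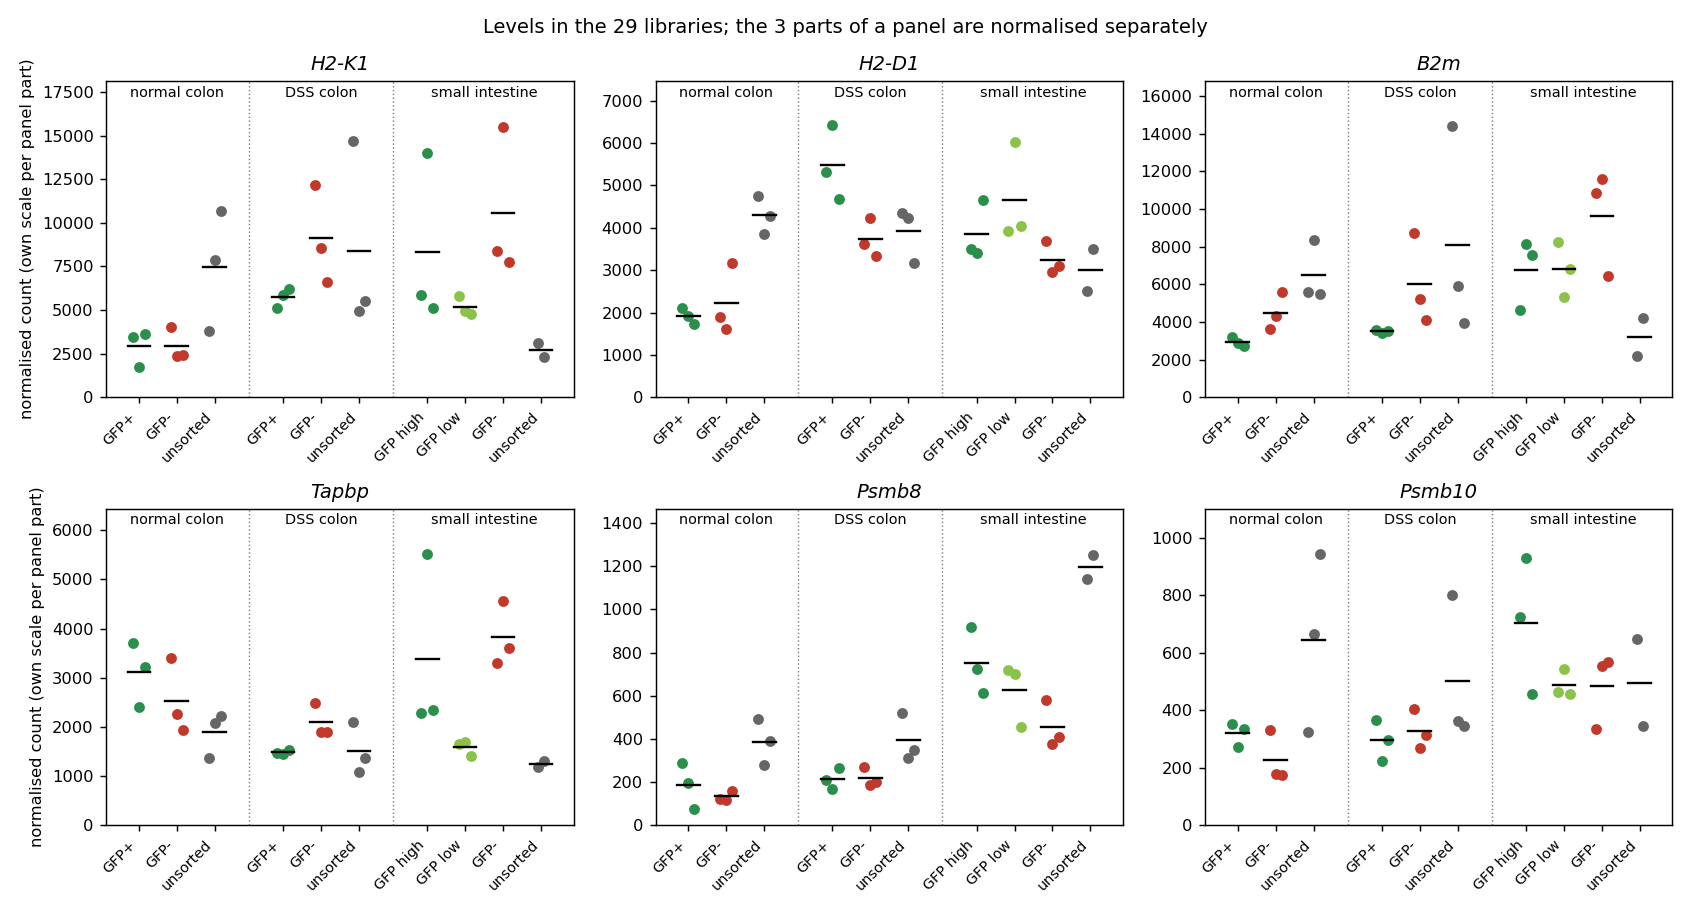
Normalised counts (vertical axis, from 0) of 6 members in the 29 libraries by group; points are libraries, bars means, and the 3 parts of each panel are on separate scales that cannot be compared. H2-K1 and Tapbp share a high library in the high GFP and GFP-negative small intestine, and Psmb8 has its highest mean in unsorted cells on all 3 scales.

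Compared with unsorted cells, Psmb9 was lower in all 4 sorted colon groups and Psmb8 in 3 of them; comparisons of a condition share its unsorted libraries. In the normal colon H2-D1, B2m and Psmb9 were lower in GFP-positive than in unsorted cells and no member was higher, where 21.8% of 14649 genes were called, 14.1% lower. Psmb8, Psmb9 and Psmb10 were lower in GFP-negative cells, where 18.8% of 14617 genes were called, 13% lower. Psmb9 was 218, 271 and 180 in unsorted libraries, 107, 93 and 58 in GFP-positive libraries and 111, 76 and 84 in GFP-negative ones, with log2 differences of -1.39 ± 0.33 (adjusted p = 0.013, limma) and -1.29 ± 0.32 (adjusted p = 0.018). In the DSS colon Psmb8, Psmb9 and Nlrc5 were lower than in unsorted cells in both populations, where 37.1% of 13662 genes were called (21.3% lower) for GFP-positive and 33% (19.3% lower) for GFP-negative cells. Nlrc5 was 59, 37 and 36 in unsorted DSS cells, 22, 13 and 21 in GFP-positive and 24, 13 and 22 in GFP-negative cells (-1.19 ± 0.33, adjusted p = 0.014, and -1.13 ± 0.35, adjusted p = 0.025, limma).

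These counts each rested on single libraries. The 3 members of the normal GFP-positive comparison became 0 without its replicate 3, 1 without its replicate 2 or unsorted replicate 3, and 5 without unsorted replicate 1. The 3 of the normal GFP-negative comparison became 0 without its replicate 2 and 1 without its replicate 3 or unsorted replicate 2. In the DSS colon the 3 became 0 without replicate 2 of either sorted population, and 1 without replicate 3 of the GFP-negative cells. Leukocyte markers moved with these differences: in the normal colon the 5 pan-leukocyte markers summed to 2117 to 4802 in unsorted, 30 to 39 in GFP-positive and 104 to 333 in GFP-negative libraries. In the DSS colon the 11 myeloid markers summed to 10237 to 16935 in unsorted, 220 to 473 in GFP-positive and 375 to 484 in GFP-negative libraries. Their part in the result was not tested.

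In the small intestine the direction differed between members. Psmb8 was 1140 and 1251 in the 2 unsorted libraries, 918, 725 and 610 in high GFP, 720, 700 and 454 in low GFP and 582, 374 and 408 in GFP-negative libraries. It was lower than in unsorted cells in low GFP (-0.96 ± 0.30, adjusted p = 0.049, limma) and GFP-negative cells (-1.42 ± 0.31, adjusted p = 0.025). H2-K1, at 3109 and 2331 in unsorted libraries, was higher in low GFP (0.94 ± 0.28, adjusted p = 0.044) and GFP-negative cells (1.9 ± 0.36, adjusted p = 0.016), and so was B2m (1.14 ± 0.36, adjusted p = 0.049, and 1.62 ± 0.38, adjusted p = 0.033). Tapbp was higher in GFP-negative cells, at 3308, 4565 and 3602 against 1181 and 1294 (1.62 ± 0.27, adjusted p = 0.012). In all, 2 members were higher and 1 lower in low GFP cells, where 22.8% of 13434 genes were called (9.13% higher, 13.7% lower), and 3 were higher and 1 lower in GFP-negative cells, where 11.5% of 13374 genes were called (4.58% higher, 6.96% lower). Of high GFP against unsorted cells none passed, where 17.2% of 13369 genes did (limma; 4 members and 30.5% of all genes with unadjusted p under 0.05). Both counts became 0 when unsorted replicate 2 or 3 was left out, which leaves 1 unsorted library assumed to vary like the sorted ones. The 5 pan-leukocyte markers summed to 6120 to 7184 in unsorted libraries, 36 to 67 in high GFP, 59 to 137 in low GFP and 185 to 285 in GFP-negative libraries, and their part in these differences was not tested. The low GFP count was also 0 without low GFP replicate 1 or 3, and the GFP-negative count 2 without GFP-negative replicate 2.

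The wider pathway was followed through lists of related genes, whose counts are to be read beside the 10.2% of all genes called higher and 9.46% lower in GFP-positive cells, and 6.03% and 4.27% in GFP-negative cells. Of 14 other class I genes 12 were in the tables and 11 were tested. In GFP-positive cells 7 rose after DSS and 1 fell, with a list median log2 fold change of 1.6; in GFP-negative cells 6 rose and none fell, with a median of 1.63, against the medians over all genes given above. H2-Q7, a nonclassical Qa-2 heavy chain, went from 43 to 140 up to 755 to 945 normalised counts in GFP-positive cells (3.35 ± 0.36, adjusted p = 0.00033, limma) and from 76 to 111 up to 443 to 908 in GFP-negative cells (2.84 ± 0.29, adjusted p = 0.00016). H2-Q6 (2.23 and 1.9) and H2-Q4 (2.10 and 1.88) rose in both, and H2-Q10 rose by 1.6 and 2.42, from at most 15 to at least 26 normalised counts. Mr1, which presents vitamin B metabolites rather than peptides, fell in GFP-positive cells from 116 to 150 down to 67 to 86 (-0.78 ± 0.22, adjusted p = 0.024, limma). In H2-Q6 49.4% of the 50-base words at the 3' end are shared with other genes and in H2-Q4 45.4%; in H2-T23, H2-T10 and H2-T22, also among the genes called, it is 50.6%, 49.8% and 49%, the last pair sharing with each other. The values of these 5 genes, among the 7 that rose in GFP-positive cells, are therefore uncertain. Of the words at H2-Q7's own annotated ends none are shared. H2-Q7 transcripts are, however, among those that hold words of the H2-Q6 ends, so the H2-Q7 values may include H2-Q6 reads. Leaving out a library gave 6 to 8 called genes in GFP-positive and 2 to 7 in GFP-negative cells. The GFP-negative count was 3 without normal replicate 2 or DSS replicate 1, and 2 without DSS replicate 2.

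Of 9 peptide loading and trimming genes tested, 2 rose in GFP-positive cells, Tapbpl, a tapasin homologue that edits peptides (1.16 ± 0.22, adjusted p = 0.0037, limma), and the aminopeptidase Npepps (0.71 ± 0.21, adjusted p = 0.029). In GFP-negative cells Tapbpl alone rose (1.48 ± 0.39, adjusted p = 0.034). The chaperones of the list, such as Calr, Canx and Pdia3, did not pass the test. The list medians were 0.31 and 0.63. With a library left out, 1 to 3 genes passed in GFP-positive cells (1 without any of the 3 DSS libraries) and 0 or 1 in GFP-negative cells (0 without normal replicate 2 or any of the 3 DSS libraries).

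Of 23 proteasome genes, all tested, 6 rose in GFP-positive and 2 in GFP-negative cells, with medians of 0.44 and 0.021. The GFP-negative count is near the share of all genes called higher there, 6.03%. Psmb5, the constitutive subunit that Psmb8 replaces, was among them (1.68 ± 0.23, adjusted p = 0.00045, and 1.55 ± 0.30, adjusted p = 0.0081, limma). The activator subunits Psme1 (0.92 and 1.37) and, in GFP-positive cells, Psme2 (1.06) rose too, as did the core subunit Psma1 in GFP-positive cells (0.93). Leaving out any of the 3 DSS libraries took the GFP-positive count to 2 or 3, and leaving out DSS replicate 2 or 3 took the GFP-negative count to 0.

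Among 13 transcription factors of class I genes, 3 rose in each population. Among them Nfyb, a subunit of the factor that binds CCAAT, rose by 0.89 ± 0.23 in GFP-positive (adjusted p = 0.017, limma) and 0.98 ± 0.26 in GFP-negative cells (adjusted p = 0.037). The NF-kB subunit Rela rose in GFP-positive cells (1.27 ± 0.22, adjusted p = 0.0018) and Irf1, which binds interferon response elements, in GFP-negative cells (2.33 ± 0.46, adjusted p = 0.0090). List medians were 0.33 and 0.52, and the GFP-negative count was 1 without DSS replicate 2.

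Of 13 interferon receptors and signal transducers, a list that overlaps the preceding one and also holds Irf1, 2 rose and 1 fell in GFP-positive cells and 4 rose and 1 fell in GFP-negative cells. The receptor chain Ifngr1 rose in both (1.0 ± 0.22, adjusted p = 0.0072, and 1.15 ± 0.34, adjusted p = 0.0497, limma) and the kinase Jak2 in GFP-negative cells (0.80). Socs3, a feedback inhibitor of cytokine receptors, fell in both (-1.31 ± 0.25, adjusted p = 0.0033, and -1.70 ± 0.30, adjusted p = 0.0051). List medians were 0.18 and 0.67. With a library left out the counts were 3 to 5 and 2 to 5; the first was 5 without normal GFP-positive replicate 1 or 2, and the second was 2 without DSS replicate 2 and 3 without any of 4 other libraries. None of 7 interferon ligands was listed in either table. Class II genes, whose products present peptides from outside the cell, served as a contrast: of 10 listed 5 could be tested and none passed in either population (limma), with medians of 0.52 and 0.85. H2-Aa was at 10 to 151 in normal and 58 to 238 in DSS GFP-positive libraries, which overlapped. Without normal GFP-negative replicate 3, however, 3 class II genes were called higher in GFP-negative cells. By the FDR in the authors' deposited table, a single other class I gene passed in GFP-negative cells and no other gene of the lists in either population. None of the lists had a gene past the threshold in the difference between the populations' responses.

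**Figure D5:**
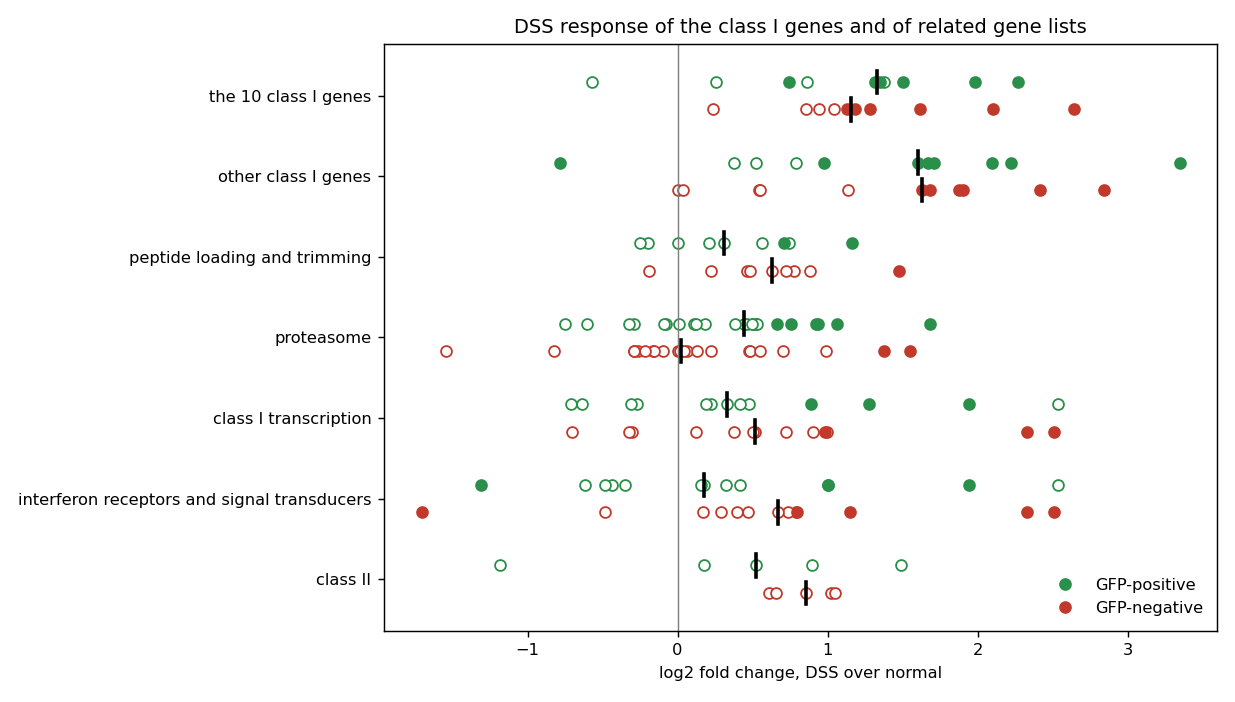
Log2 fold change of DSS over normal (horizontal axis) of the 10 class I genes and of 6 related lists in GFP-positive and GFP-negative colon cells; each point is a gene, filled where it passed an adjusted p of 0.05 (limma), and black bars are list medians. The members (medians 1.33 and 1.16) and the other class I genes (1.6 and 1.63) lie farther to the right than the proteasome genes (0.44 and 0.021).

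The genes most like the members were sought by Pearson correlation of log2 values with the mean standardised member profile over the 12 sorted colon libraries. The 12419 genes correlated include the members, which were left out of the ranking. Among the 5 highest were Zbp1 (r = 0.98), Gm4841 (0.98), Gm4951 (0.97) and Irgm1 (0.95). Zbp1, a sensor of nucleic acids, averaged 16.7 and 12 normalised counts in normal GFP-positive and GFP-negative cells and 61.7 and 86.3 after DSS. Irgm1, an interferon-inducible GTPase, averaged 34 and 21 in normal and 134 and 136 in DSS cells. These correlations describe libraries that share treatment, sort and depth, and carry no test.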

How the data were processed

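The data are 3' QuantSeq libraries sequenced on the Ion Proton. Reads were aligned to mm10 with TopHat2 and Bowtie2 and the authors compared groups with DESeq, per the submitters' processing notes, which give no versions. The deposited tables hold normalised counts that the authors rounded to whole numbers, treated here as a score and not as raw counts, so no count model was used; they also hold the authors' DESeq p-values and FDR and, per the file headers, log2 fold changes. Groups came from the sample labels. For each comparison limma 3.58.1 in R 4.3.3 (trend and robust) was fitted to log2 of the value plus 1 over all genes whose mean reached 10 in 1 or more groups, with Benjamini-Hochberg adjustment over all genes tested and a threshold of 0.05, so fold changes of low genes are understated. The DSS responses were compared by an interaction term over the 12 sorted colon libraries. Exact permutation tests used scipy 1.17.1, and figures matplotlib 3.10.9. On simulated data the fit recovered 66% of 2-fold and 99% of 4-fold changes for the GFP-positive DSS comparison and 44% and 96% for the GFP-negative one.

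The members and lists were chosen with earlier results of these data known. Named genes were all 10 members and, per list, up to 3 genes past the threshold with the largest fold change in each direction in a DSS response, and the 5 genes most like the members. One gene that this rule names is not reported here. H2-Aa as the class II example, Calr, Canx and Pdia3 as list members that did not pass, and further values of a gene named in 1 population were given after the values were seen. Alternatives were another pseudocount (0.5 or 5), other filters (none, or a mean of at least 50), other scalings, limma without trend and robust, a replicate block, the authors' FDR, and leaving out each library. Sequences are RefSeq promoters of GRCm38.p6 and GENCODE M21 transcripts.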

Additional observations from a re-analysis of the deposited data

Results flagged for a closer look

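The contrasts below were flagged because every library moved one way in one setting and the opposite way in the other; the differences between settings were not tested. H2-K1 was lower in GFP-positive than in unsorted cells of the normal colon (log2 ratio of means -1.34) and higher in high GFP than in unsorted cells of the small intestine (1.61). B2m did the same, at -1.14 in the colon and 1.09 in the small intestine. In the colon both genes' GFP-positive libraries lay below all 3 unsorted libraries, and in the small intestine all 3 high GFP libraries lay above both unsorted ones. H2-D1 was lower in GFP-positive than in unsorted cells of the normal colon (-1.16) and higher in those of the DSS colon (0.48), again without overlap. Of these contrasts the limma fits called only B2m and H2-D1 in the normal colon. H2-K1 there, H2-K1 and B2m in the small intestine and H2-D1 in the DSS colon did not pass. The share of all genes without overlap is not given for these contrasts, so it is not shown that the flagged members stand out. In the DSS responses and between sorted colon cells that share was 10.8% to 19.2% in a given direction. The scales of the settings differ, and unsorted preparations also differed in their markers: their sums over 9 mesenchymal markers were 31690 to 69600 (normal colon), 15386 to 27794 (DSS colon) and 5817 to 8068 (small intestine). Their part was not tested.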

How the results depend on the processing

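Counts of members past the threshold are given here in the order of the alternatives. By the authors' deposited FDR the count was 0 in all 14 comparisons, against 6 in each DSS response; the cause was not tested. Under the other limma settings that kept all libraries the DSS counts were 5 to 7 in GFP-positive and 6 or 7 in GFP-negative cells, and the DSS difference and the normal colon contrast between sorted cells stayed at 0. Of low GFP against GFP-negative small intestine, the count of 1 was 0 with pseudocount 0.5, equal totals, median ratios, the replicate block or limma without trend and robust, and 2 with pseudocount 5, no filter or a mean of at least 50. Of low GFP against unsorted small intestine, the count of 3 was 1 with pseudocount 0.5, no filter or median ratios and 0 without trend and robust. Of GFP-negative against unsorted small intestine, the count of 4 was 0 without trend and robust. Equal totals gave 1 member in the DSS colon contrast of sorted cells and 2 in high GFP against unsorted small intestine, where the main count was 0.

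Labelled replicate numbers are shared between groups, but nothing in the labels pairs them. Correlations of same-numbered deviations ran from -0.297 to 0.363, and 0 of the 14 tables had every pair over 0.1. In 1 of 11 tables with 3 pairs, high against low GFP (0.0777 to 0.23), did every library correlate best with its own number. In unsorted against GFP-negative DSS colon (0.0447 to 0.363) 5 of 6 libraries did. So did 5 of 6 in GFP-negative DSS against normal colon (0.015 to 0.168), which come from different treatments. Pairing by number is thus neither shown nor excluded. With the replicate block the count was 3 in the DSS colon contrast of sorted cells, 0 in low GFP against GFP-negative small intestine, 5 in GFP-positive against unsorted DSS colon, 3 in high GFP, 1 in low GFP and 1 in GFP-negative against unsorted small intestine, and it stayed within 1.5 times the main count elsewhere.

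Leaving out 1 library gave 4 to 7 (GFP-positive) and 3 to 7 (GFP-negative) members in the DSS responses, 0 to 2 between sorted DSS colon cells, 0 to 1 for low GFP against GFP-negative cells, 0 to 5 and 0 to 4 for normal colon GFP-positive and GFP-negative against unsorted cells, 0 to 4 and 0 to 3 for the DSS colon, and 0 to 2 and 0 to 3 for low GFP and GFP-negative against unsorted small intestine. In the difference of the DSS responses the sign, never past the threshold, turned for Tap2 (-0.61 to 0.19), Psmb8 (-0.87 to 0.098), Nlrc5 (-0.24 to 0.89), Psmb9 (-0.064 to 0.36) and B2m (-0.35 to 0.19; 0.037 without normal GFP-negative replicate 1). Nlrc5, at 2 to 59 normalised counts, is limited by depth. Alternatives for the lists were added after the data had been seen.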
